A study of Mus musculus with 2 samples.

Results

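Glucose and lactate transport was followed through 8 genes in single-cell RNA-seq data of the mouse eye cup at e15.5. The genes were the lactate carriers Slc16a8, Slc16a1 and Slc16a3, the glucose carriers Slc2a1 and Slc2a3, the carrier partner Bsg, and the lactate dehydrogenase subunits Ldha and Ldhb. They were matched by symbol, and all 8 were found among the 31053 genes counted. The study asked how loss of the transcription factor MYRF changes gene expression in the RPE (retinal pigment epithelium), the pigmented sheet between the neural retina and the choroid, and in its neighbours. Control eye cups were Myrf fl/fl, with loxP sites in both copies of Myrf. Mutant eye cups were Rx>cre Myrf fl/fl and carried the same floxed alleles together with a Cre transgene driven by Rx regulatory sequence, which is active in the early eye field and therefore in precursors of the neural retina as well as of the RPE. There was 1 library per genotype, each from 3 eye cups pooled after removal of cornea, lens and optic nerve, so the spread between embryos was not measured and no test between genotypes was possible. Cells were captured with 10x Genomics 3′ chemistry, in which each captured transcript carries a unique molecular identifier (UMI).

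The outer retina receives glucose from the choroid across the RPE, and retinal cells release lactate that the RPE passes on towards the blood. Monocarboxylate carriers move lactate together with a proton, GLUT carriers let glucose through along its gradient, and several monocarboxylate carriers reach the plasma membrane only with basigin, the product of Bsg. Lactate dehydrogenase is a tetramer of M subunits (Ldha), which are typical of tissues that make lactate, and H subunits (Ldhb), which are typical of tissues that use it.

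The genes lie apart in the GRCm38 assembly. Slc16a8 (ENSMUSG00000032988), which encodes the RPE lactate carrier MCT3, lies at chr15:79251014-79254761 on the minus strand, where Gm49486 overlaps it on the other strand. Slc16a1 (MCT1, a broadly used lactate carrier) lies at chr3:104638668-104658462 and Slc16a3 (MCT4, a carrier of lactate-exporting cells) at chr11:120948480-120960868, both on the plus strand, with Gm43581 and Gm43585 overlapping Slc16a1 on its own strand. Slc2a1 (GLUT1, the glucose carrier of blood-tissue barriers) lies at chr4:119108711-119137983 on the plus strand with Gm12867 and Gm12868 antisense to it and Mir1957a on its own strand, and Slc2a3 (GLUT3, best known from neurons) at chr6:122727809-122801640 on the minus strand, as does Gm4482, which overlaps it. Reads in same-strand overlaps cannot be assigned to one gene with certainty. Bsg lies at chr10:79704491-79711969 and Ldha at chr7:46841475-46855627, both on the plus strand, and Ldhb at chr6:142490249-142507957 on the minus strand. Ldha has 2 annotated pseudogenes, which could share reads with it.

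The promoters of the RPE carrier Slc16a8 and of Ldhb are shown beside those of Slc16a3 and Ldha because the last pair are known targets of hypoxia signalling. The pairs do not separate by class, since Ldhb, like Slc16a3 and Ldha, was at its highest in a neural class. Each sequence holds the 250 bases before the RefSeq start in GRCm38.p6, 5′ to 3′ on the gene's strand, and capitals mark the hypoxia response element core ACGTG or its reverse complement CACGT, with overlapping matches on both strands merged. Slc16a8 is read from chr15:79254749-79254998 (minus), Ldhb from chr6:142507958-142508207 (minus), Slc16a3 from chr11:120948817-120949066 (plus) and the first Ldha promoter from chr7:46845554-46845803 (plus).
Slc16a8: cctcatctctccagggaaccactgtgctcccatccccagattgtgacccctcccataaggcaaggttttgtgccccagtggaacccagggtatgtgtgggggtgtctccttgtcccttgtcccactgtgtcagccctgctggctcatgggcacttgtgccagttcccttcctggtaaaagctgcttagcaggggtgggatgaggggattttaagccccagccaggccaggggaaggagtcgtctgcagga
Ldhb: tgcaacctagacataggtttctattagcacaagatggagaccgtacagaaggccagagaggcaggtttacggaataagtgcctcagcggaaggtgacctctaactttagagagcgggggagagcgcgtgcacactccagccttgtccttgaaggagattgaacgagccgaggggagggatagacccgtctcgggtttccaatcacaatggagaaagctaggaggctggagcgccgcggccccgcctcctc
Slc16a3: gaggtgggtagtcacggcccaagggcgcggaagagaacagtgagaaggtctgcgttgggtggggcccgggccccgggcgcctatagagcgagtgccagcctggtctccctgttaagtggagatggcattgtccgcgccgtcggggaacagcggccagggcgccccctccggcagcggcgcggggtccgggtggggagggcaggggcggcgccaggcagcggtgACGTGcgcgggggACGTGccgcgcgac
Ldha: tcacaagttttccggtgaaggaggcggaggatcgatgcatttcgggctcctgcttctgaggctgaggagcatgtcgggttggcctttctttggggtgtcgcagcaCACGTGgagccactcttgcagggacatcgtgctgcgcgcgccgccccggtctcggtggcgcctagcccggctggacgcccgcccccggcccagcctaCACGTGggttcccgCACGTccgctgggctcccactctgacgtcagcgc
The core was at 2 places in the Slc16a3 promoter, 27 and 14 bases before the start, and at 3 places in the first Ldha promoter, 145, 48 and 34 bases before it. It was at 1 place in the promoters of Slc2a1, 36 bases before the start, and Slc16a1, 200 bases before it, and was not among these letters in those of Slc16a8 and Ldhb or in a second Ldha promoter. Of 32851 mouse promoters of this length, 16.6% held the core. RefSeq promoters were matched for 6 of the 8 genes, not for Slc2a3 and Bsg. By the GENCODE annotation, the last 13 bases shown for Slc16a8 and the last 14 for Slc16a3 already lie in an annotated exon of the gene. So do the last 34 of the Slc2a1 promoter, so that the nearer Slc16a3 core lies in an exon and the Slc2a1 core touches one. The stretches shown for Slc16a3 and Ldha lie within the annotated span of the gene given above, downstream of its first base. A match describes the sequence and does not show that a factor binds there.

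After filtering, 11520 control and 12670 mutant cells were kept, with medians of 9804.5 and 8966 UMIs. The cells fell into 35 clusters, of which 31 were named "-like" from marker genes and joined into 15 classes. The libraries shared 69 barcodes, 59 of them among kept cells of each library, which included 3 control and 0 mutant RPE-like cells. The libraries also differed in Y-linked UMIs, which in the RPE-like class were carried by 0 of 368 control cells and 53 of 206 mutant cells. In progenitor-like cells they were carried by 1 of 4074 control and 2108 of 5324 mutant cells, and in mesenchyme-like cells by 1 of 2697 and 1015 of 1944. The labels do not give the sex of the embryos. An effect of sex therefore cannot be told apart from one of genotype in any class. Myrf stood at 78.8 CPM in control and 29.8 CPM in mutant RPE-like cells, a ratio of 0.378 (95% interval 0.280 to 0.504). Throughout, CPM is the UMIs of a gene per 1e+06 UMIs of a class, ratios are mutant to control, and intervals are exact and cover counting error only. Because UMIs are counted at the 3′ end and were not scaled to gene length, the genes are compared between classes and not with each other, except as shares of the UMIs of their family.

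The RPE-like class held 3.19% of kept control cells and 1.63% of kept mutant cells, with median depths of 6699 and 3587 UMIs. Their summed RPE marker levels were 15369 and 15109 CPM over 13 markers, led by Pmel and Ttr, and included Rlbp1 (348 and 227 CPM), Stra6 (298 and 297 CPM), Rdh5 (218 and 174 CPM) and Rrh (63.1 and 36.6 CPM). Of the same markers, Rpe65 had 0 UMIs in both libraries, Lrat 2 and 0, Best1 4 and 1, and Rgr 17 and 0. Markers of other classes differed between the libraries in these cells. The 12 mesenchyme markers summed to 606 CPM in control and 1356 CPM in mutant cells, and the 10 progenitor markers, none of them at 0, to 926 and 1483 CPM, and their part in the values below was not tested unless a value without such cells is given.

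Slc16a8, the lactate carrier of the basolateral RPE membrane, was the gene of the set most restricted to one class. RPE-like cells held 663 of its 686 control UMIs and 194 of its 201 mutant UMIs, or 96.6% and 96.5%. It had 0 UMIs in both libraries in 10 of the 15 classes. In endothelium-like cells, 0 UMIs allowed at most 1.40 CPM (control) and 1.86 CPM (mutant). After each cell was thinned to 2000 UMIs, 51 of 242 control RPE-like cells (21.1%) and 15 of 124 mutant ones (12.1%) had a Slc16a8 UMI. Of the other cells, 1 of 9119 in control (0.0110%) and 0 of 10283 in mutant had one, the latter allowing up to 0.0292% at that depth. Without thinning, 0.206% of the other control and 0.0562% of the other mutant cells had one. Before thinning the other cells were the deeper ones, with medians of 9845.5 and 8987.5 UMIs.

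The other lactate carriers were spread over the eye cup. With haemoglobin in the totals, Slc16a1 was highest in ciliary margin-like cells, at 38.4 and 35.2 CPM in control and mutant. RPE-like cells followed at 27.6 and 28.2 CPM, which overlapped progenitor-like cells at 29.4 and 24.1 CPM. In erythroid-like cells, where haemoglobin lowers the CPM of every other gene, Slc16a1 stood at 3.31 and 3.59 CPM and is not placed in this order. Among neural classes it was lowest in photoreceptor precursor-like cells, at 3.14 and 3.61 CPM. Slc16a3 was highest in retinal ganglion cell-like cells (44.7 and 53.9 CPM) and progenitor-like cells (44.5 and 48.9 CPM), whose ranges overlapped, followed by neurogenic progenitor-like cells at 35.8 and 38.4 CPM. In RPE-like cells Slc16a3 stood at 15.7 and 13.6 CPM. Of the UMIs of the 3 lactate carriers, Slc16a8 thus made up 80.6% in control and 70.8% in mutant RPE-like cells, Slc16a3 85.1% and 90.5% in ganglion cell-like cells, and Slc16a1 83.3% and 77.1% in ciliary margin-like cells.

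Between whole classes, Slc2a1 was highest in RPE-like cells, at 595 and 613 CPM, although their Ttr-high sub-cluster, described below, held 428 and 516 CPM. Retinal progenitor-like cells came next with 409.8 and 447 CPM, and then surface epithelium-like (231 and 245 CPM), endothelium-like (208 and 239 CPM) and neurogenic progenitor-like cells (214 and 209 CPM), whose ranges overlapped. Amacrine or horizontal cell-like cells held 152 and 164 CPM, photoreceptor precursor-like cells 60.9 and 81.1 CPM and ganglion cell-like cells 37.8 and 39.5 CPM. Slc2a3, the neuronal carrier, remained sparse. It reached 7.71 and 5.14 CPM in ganglion cell-like cells, where it was 16.96% and 11.5% of the UMIs of both glucose carriers, against 0.781% and 0.676% in progenitor-like cells and 1.66% and 1.26% in RPE-like cells. Its highest level, 50.04 and 13.2 CPM in surface epithelium-like cells, rested on few cells, since 66.2% and 72.0% of those UMIs were in 5 cells.

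Bsg was detected in every class and was highest in RPE-like cells, at 1618 and 1850.2 CPM. The next classes were Schwann cell precursor-like cells at 753 and 752 CPM and periocular mesenchyme-like cells at 690.2 and 704 CPM. Erythroid-like cells held 153 and 155 CPM of all UMIs but, with haemoglobin left out of the totals, 1490 and 1654 CPM, which came second and reached the range of RPE-like cells on that scale (1628 and 1859 CPM). In the thinned cells, 50 of the 51 control and all 15 mutant RPE-like cells with a Slc16a8 UMI also had a Bsg UMI, as did 84.3% and 86.2% of the cells without Slc16a8. A Slc2a1 UMI was found in 22 of the 51 (43.1%) and 10 of the 15 (66.7%), beside 63.4% and 58.7% of the cells without Slc16a8. None of those 51 and 15 cells had a Slc16a1 UMI, which allows up to 5.88% and 20% and so could not be told at this depth from 5.76% and 4.59% of the RPE-like cells without a Slc16a8 UMI.

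The dehydrogenase subunits were ordered differently. Ldha was highest in photoreceptor precursor-like cells, at 1005 and 1076 CPM, followed by progenitor-like (929.5 and 945 CPM) and neurogenic progenitor-like cells (805 and 767 CPM). Ldhb was highest in amacrine or horizontal cell-like cells, at 777 and 671 CPM, above melanocyte-like (327 and 411 CPM), ganglion cell-like (379 and 353 CPM) and Schwann cell precursor-like cells (370.1 and 328 CPM), whose ranges overlapped. RPE-like cells held 463 and 426 CPM of Ldha and 330.2 and 327 CPM of Ldhb. As a share of both subunits, Ldha was 86.0% and 86.7% in progenitor-like cells, 84.3% and 85.0% in photoreceptor precursor-like cells, 57.5% and 58.5% in ganglion cell-like cells, 58.3% and 56.6% in RPE-like cells, and 28.7% and 33.8% in amacrine or horizontal cell-like cells.

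**Figure D1:**
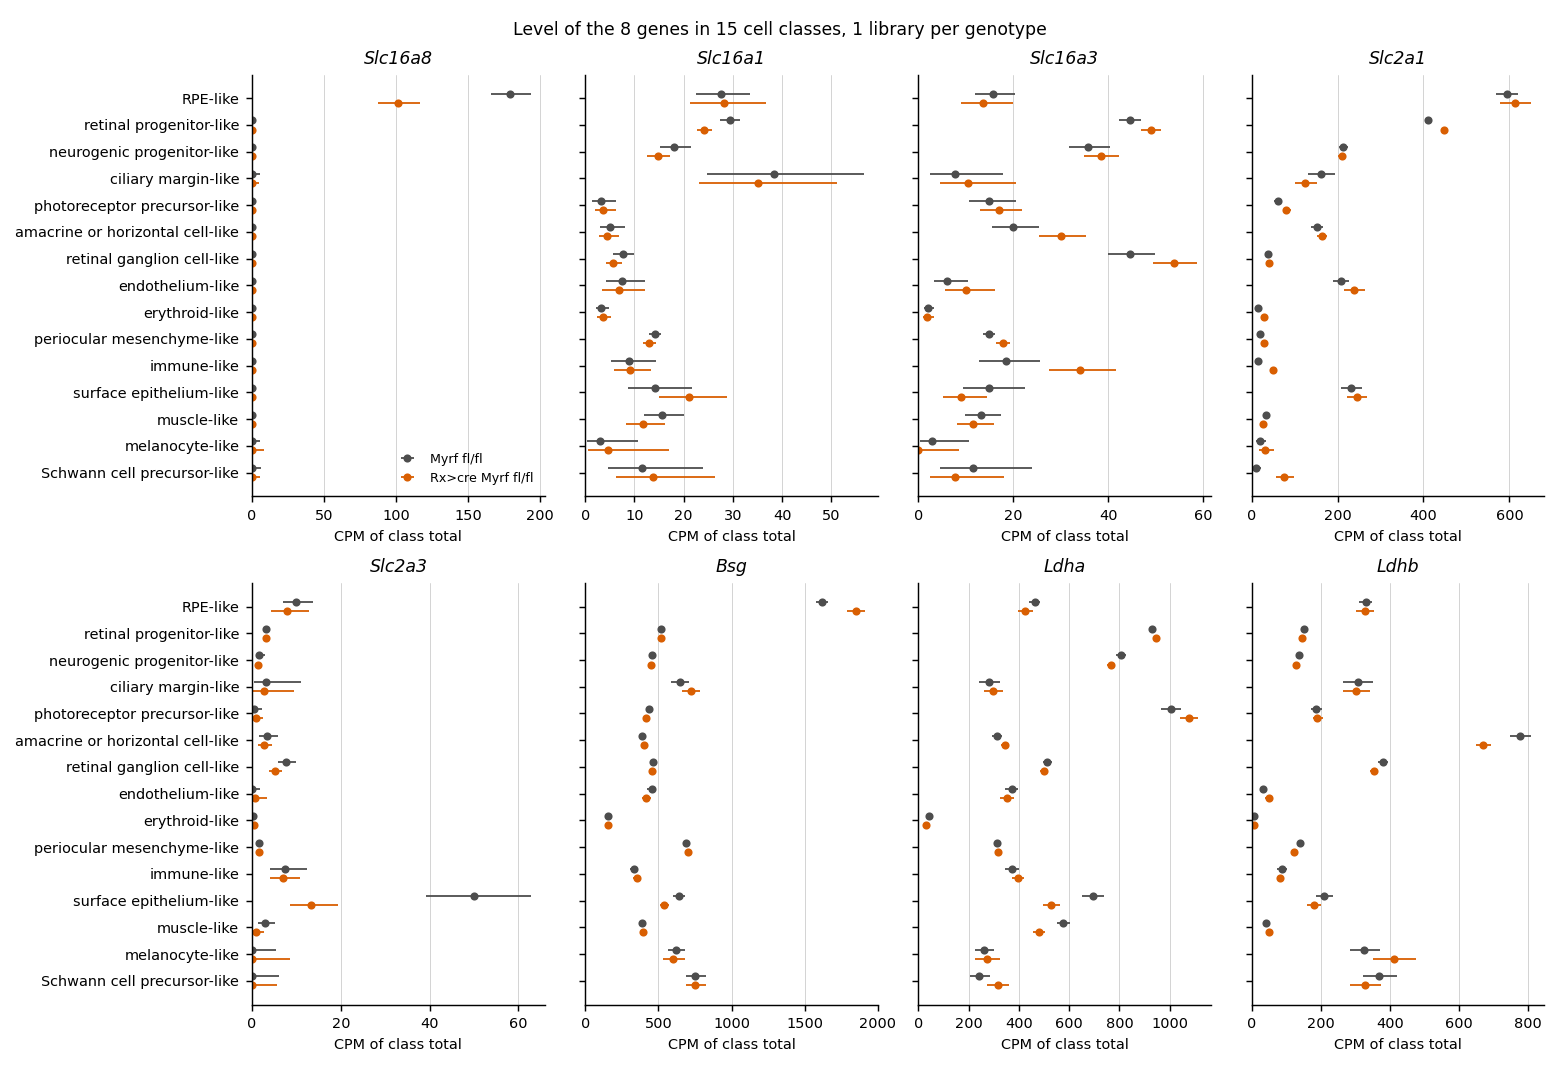
CPM of each of the 8 genes in 15 marker-named cell classes, 1 panel per gene, for the control and the mutant library, with bars for exact 95% Poisson intervals. Slc16a8, Slc2a1 and Bsg were highest in RPE-like cells, Ldha in photoreceptor precursor-like cells and Ldhb in amacrine or horizontal cell-like cells.

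**Figure D2:**
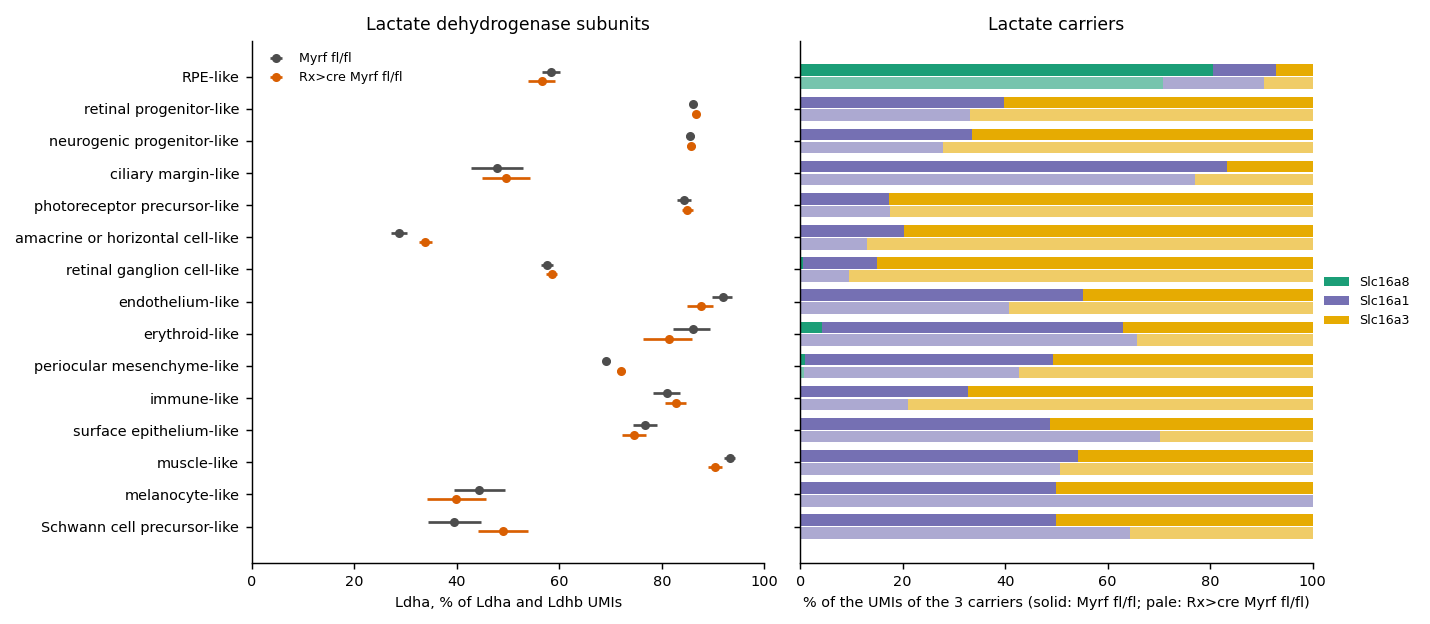
Left, Ldha as a percentage of Ldha and Ldhb UMIs in each class. Right, the percentage of lactate carrier UMIs from Slc16a8, Slc16a1 and Slc16a3, solid for control and pale for mutant, where the melanocyte-like bars rest on 4 and 2 UMIs. Slc16a8 made up 80.6% and 70.8% of carrier UMIs in RPE-like cells.

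Between the genotypes, Slc16a8 was the 1 gene of the 8 past 1.5-fold in RPE-like cells. Its level was 179 CPM in control and 101 CPM in mutant cells, a ratio of 0.565 (0.479 to 0.664). Over all genes with at least 20 UMIs in these cells, 13.7% were past 1.5-fold, 8.06% lower and 5.63% higher in the mutant, so 1 of 8 was near the background. Slc16a8 is among the genes the study itself described in these samples, and its lower level is not independent evidence. Bsg, its partner, had a ratio of 1.14 (1.10 to 1.19), but its direction turned in 6 of 18 alternatives, with log2 ratios from -0.42, without cells carrying markers of another class, to 0.26. Slc2a1 had a ratio of 1.03 (0.960 to 1.11), whose direction turned in 9 of 18, Ldha 0.921 (0.846 to 1.00), Ldhb 0.991 (0.899 to 1.09) and Slc16a1 1.02 (0.721 to 1.44). The sparse Slc16a3 (58 and 26 UMIs) and Slc2a3 (37 and 15 UMIs) had ratios of 0.866 and 0.783. Over the 8 genes the median log2 ratio was -0.07, beside -0.05 over all genes tested. The 5 richest cells held 18.4% of control and 35.1% of mutant Slc16a8 UMIs, and without them the log2 ratio moved from -0.82 to -1.11. In cells gated on marker UMIs alone, 143 control and 43 mutant, it was -0.58, just inside 1.5-fold.

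Over all RPE-like cells, the Slc16a8 difference differed in size between depths. It was 176 and 106 CPM in cells over 10000 UMIs (0.603), 211 and 75.0 CPM above 2000 and up to 10000 UMIs (0.356), and 156 and 71.2 CPM, from 21 and 6 UMIs, in cells up to 2000 UMIs. Slc2a1 stood at 594 and 652 CPM in cells over 10000 UMIs and at 634 and 380.2 CPM above 2000 and up to 10000 UMIs (0.600). Since Y-linked UMIs were found in mutant RPE-like cells alone, the values were also taken over cells that had an Xist UMI but none from Y-linked genes, where the log2 ratio of Slc16a8 was -2.18 from 183 control and 42 mutant cells.

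At a finer clustering resolution of 2.0 the RPE-like cells split into 2 sub-clusters, which are called Ttr-high and Ttr-low after transthyretin, the carrier of thyroid hormone and retinol that the RPE secretes. The split was taken up after the data were seen. Named by the same rule at that resolution, Ttr-high cells stayed RPE-like and Ttr-low cells stayed unnamed, so what the latter are was not resolved, and values over all RPE-like cells include them. In Ttr-low cells the melanocyte markers summed to 12039 and 12546 CPM and the RPE markers to 11879 and 12300.5 CPM, and both lists hold Pmel, Dct and Tyrp1. In Ttr-high cells the sums were 11680 and 10564 CPM and 21752 and 18207 CPM. Neither the 8 genes nor the naming markers were among the clustering features, but the cells clustered are the same, so the levels in the sub-clusters are descriptions. Ttr-high cells numbered 171 in control and 103 in mutant and Ttr-low cells 197 and 103. Ttr stood at 8498 and 6557 CPM in the former and at 18.4 and 83.7 CPM in the latter. Pmel, a melanosome protein, was high in both (8695 and 7861 CPM, 7411 and 7499 CPM), whereas the visual cycle genes Rlbp1 (622 and 299 CPM, 198 and 162 CPM) and Rdh5 (473 and 267 CPM, 79.1 and 88.7 CPM) were higher in Ttr-high cells, and Mlana (647 and 589 CPM, 1437 and 1499 CPM) and Gja1 (328 and 336 CPM, 1086 and 1086 CPM) were higher in Ttr-low cells. Of the 9 melanocyte markers, Pax3 and Mcoln3 had at most 5 UMIs in either sub-cluster and library. In melanocyte-like cells they stood at 284 and 286 CPM and at 202 and 204 CPM. Mlana, of the same list, went the other way, at 691 and 878 CPM in melanocyte-like cells. Kit, Ednrb and Sox10 of that list are not given here.

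Slc16a8 was nearly confined to Ttr-high cells. They held 651 of the 663 control UMIs and 193 of the 194 mutant UMIs, and Ttr-low cells held 12 and 1. In thinned Ttr-high cells, 51 of 107 control (47.7%) and 15 of 60 mutant cells (25%) had a Slc16a8 UMI. No thinned Ttr-low cell did, 0 of 135 in control and 0 of 64 in mutant, which at that depth allows up to 2.22% and 4.69%. Without thinning, 6 control (3.05%) and 1 mutant (0.971%) Ttr-low cells had one. Within Ttr-high cells the level was 498 CPM in control and 212 CPM in mutant, a ratio of 0.426 (0.361 to 0.501), further from 1 than over all RPE-like cells. Of all RPE-like UMIs, Ttr-high cells contributed 35.4% in control and 47.5% in mutant. The log2 ratio in Ttr-high cells was -1.23, and ranged from -2.39 to -0.94 over 8 alternative choices of cells. Among them were -1.36 without cells that carried markers of another class, from 83 control and 45 mutant cells. Another was -2.21 in cells with an Xist UMI but none Y-linked, from 68 and 13 cells. The order between depths seen over all RPE-like cells was not seen in Ttr-high cells. There the Slc16a8 ratio was 0.401 (0.336 to 0.477) in cells over 10000 UMIs. It was 0.523 (0.281 to 0.910), from 88 and 15 UMIs, in cells above 2000 and up to 10000 UMIs. Myrf itself stood at 129 and 34.1 CPM in Ttr-high cells and at 51.1 and 25.9 CPM in Ttr-low cells.

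The leading lactate carrier differed between the sub-clusters. In Ttr-high cells Slc16a8 made up 95.7% of carrier UMIs in control and 86.2% in mutant. In Ttr-low cells Slc16a1 was the larger part, with 53.8% and 66.0%, at 32.2 and 32.9 CPM against 19.1 and 23.1 CPM in Ttr-high cells. Slc16a3 stood at 22.6 and 15.9 CPM in Ttr-low cells and at 3.06 and 10.99 CPM, from 4 and 10 UMIs, in Ttr-high cells. Bsg was higher in Ttr-high than in Ttr-low cells by 2.11-fold in control and 2.17-fold in mutant (2449.5 and 2578 CPM, 1163 and 1190.5 CPM). The Bsg ratios of mutant to control were 1.05 in Ttr-high and 1.02 in Ttr-low cells, without a stable direction. In Ttr-high cells the ratio was 0.743 (0.619 to 0.888) without cells carrying markers of another class, from 83 control and 45 mutant cells. It was 0.752 (0.684 to 0.825) in cells with an Xist UMI but none Y-linked, from 68 and 13 cells, and 0.877 at a mitochondrial share of at most 5%. The markers of other classes include Krt18, which is also a leading gene of the RPE-like cluster.

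Slc2a1 and Ldha had the opposite order, being lower in Ttr-high cells. Slc2a1 stood at 428 and 516 CPM there, which overlapped the progenitor-like cells, and at 686 and 701 CPM in Ttr-low cells. Ldha stood at 303 and 381 CPM in Ttr-high and at 549.7 and 466 CPM in Ttr-low cells, whereas Ldhb was at 377 and 329.8 CPM and at 304 and 325 CPM. In the control, Ldha was 44.5% of dehydrogenase UMIs in Ttr-high and 64.4% in Ttr-low cells. In the mutant the shares were closer, at 53.6% and 58.9%, with ratios of 1.26 (1.09 to 1.46) in Ttr-high and 0.848 (0.762 to 0.943) in Ttr-low cells. Both ratios kept their direction over 8 alternative choices of cells, between 0.29 and 0.61 and between -0.40 and -0.18 on the log2 scale. Slc2a3 had 9 and 0 UMIs in Ttr-high cells and 28 and 15 UMIs (11.7 and 14.9 CPM) in Ttr-low cells. The Slc2a1 ratio in Ttr-high cells, 1.21 (1.06 to 1.36), from 559 and 469 UMIs, did not keep its direction. Its log2 ratio of 0.27 became -1.63 without cells carrying markers of another class, from only 106 and 13 UMIs. It became -0.86 above 2000 and up to 10000 UMIs per cell, from only 89 and 16 UMIs.

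Counted at 1.5-fold, 1 of 6 genes of the set was past it in Ttr-high cells, lower in the mutant (background 19.8%, 11.5% lower) and 0 of 7 in Ttr-low cells (background 16.7%). From Ttr-high to Ttr-low cells of the control, 28% of genes were past 1.5-fold, 14.2% lower and 13.8% higher in Ttr-high cells. There, 5 of the 8 genes were lower and 2 were higher. In the mutant, 28.5% of genes were past it, 13.8% lower and 14.7% higher, and 0 of 7 genes of the set were lower and 2 were higher. Of 15 glycolytic enzymes, 7 were lower and 1 higher in control Ttr-high cells (median log2 -0.52) and 2 lower and 1 higher in mutant ones (median -0.29). The sub-clusters also differed in other markers. The 12 erythroid markers summed to 9936 and 3104 CPM in Ttr-high and 4242 and 6176 CPM in Ttr-low cells, and the 10 progenitor markers to 1332 and 2097 CPM and to 705 and 926.5 CPM. Their part in these values was not tested.

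**Figure D3:**
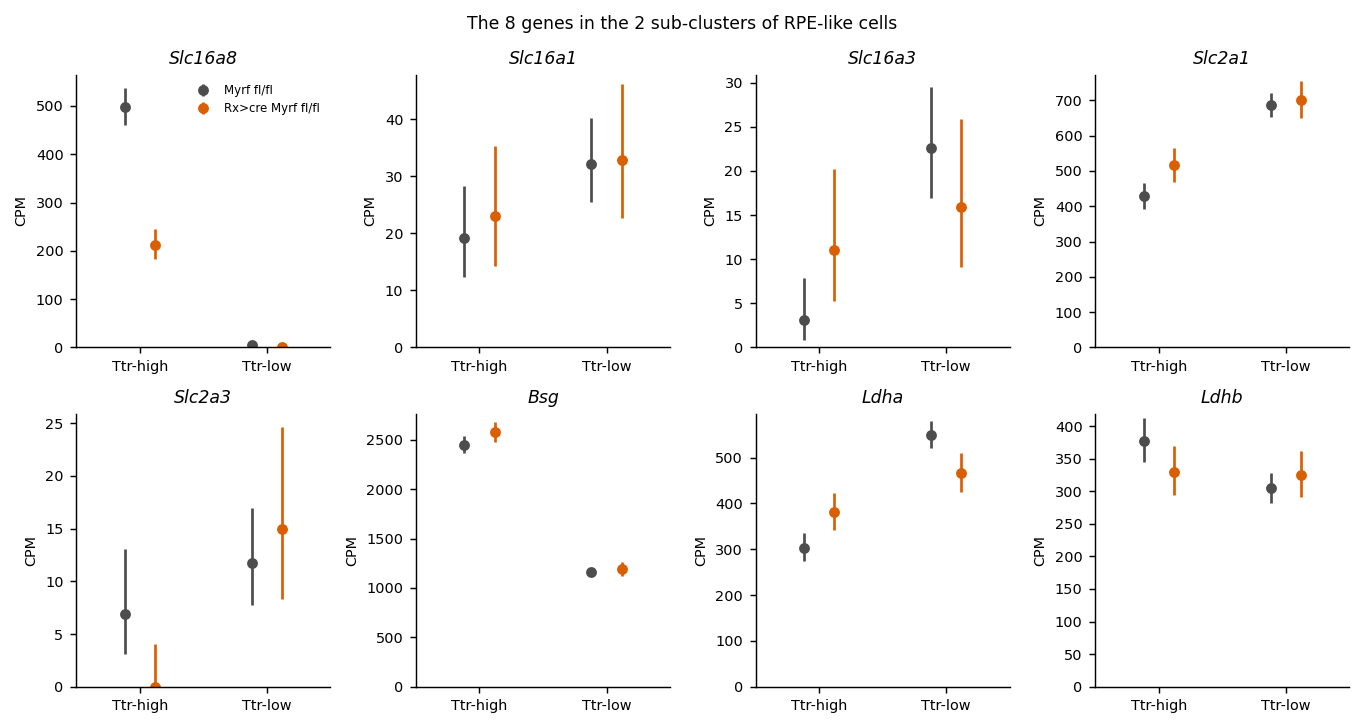
CPM of the 8 genes in the Ttr-high and Ttr-low sub-clusters of RPE-like cells for control and mutant, with exact 95% Poisson intervals. Slc16a8 was found almost only in Ttr-high cells, at 498 and 212 CPM, and Bsg was higher there, whereas Slc2a1 and Ldha were higher in Ttr-low cells.

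**Figure D4:**
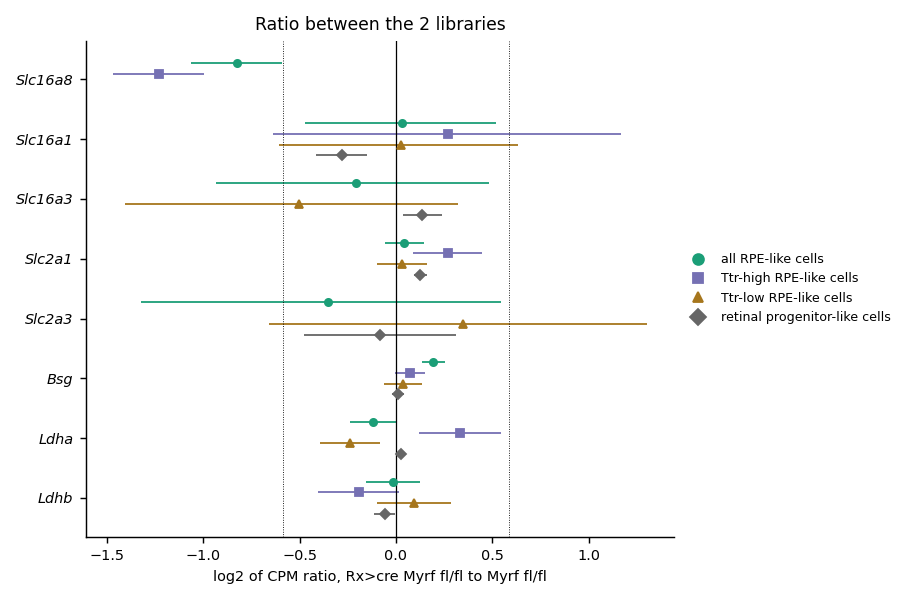
Log2 ratio of mutant to control CPM of each gene in all RPE-like, Ttr-high, Ttr-low and retinal progenitor-like cells, with exact 95% intervals and dotted lines at 1.5-fold. Genes under 20 UMIs in a group have no marker. Slc16a8 lies below the lower line in all RPE-like cells (-0.82) and in Ttr-high cells (-1.23).

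In retinal progenitor-like cells, 0 of 7 genes were past 1.5-fold (background 5.57%). Slc16a1 was the furthest from 1, at 0.823 (0.751 to 0.902), and Slc2a1 and Slc16a3 had ratios of 1.09 (1.07 to 1.12) and 1.10 (1.02 to 1.18). Ldha stood at 929.5 and 945 CPM and Bsg at 516 and 521 CPM. Among the 12 neural clusters of usual depth, without the 3 shallow ones (clusters 1, 3 and 13, with medians of 1389, 1215 and 1188 UMIs), Slc2a1 was highest in progenitor cluster 0, led by Ung and Mcm3, genes of DNA repair and replication, at 589 and 639 CPM, and Slc2a1 is itself among the leading genes of that cluster. It was lower in the histone-led cluster 2 (448 and 475 CPM) and in those led by mitotic genes, cluster 5 with Cenpf and Ccnb1 (358 and 385 CPM) and cluster 11 with Ccnb2 and Cdc20 (330.4 and 343 CPM). This order of Slc2a1 was seen in both libraries. Ldha differed less between the same clusters, with 969.6 and 1027 CPM, 1011 and 1033 CPM, 867 and 826.5 CPM, and 778.5 and 836 CPM. It kept that order only in part, being higher in cluster 2 than in cluster 0 in both libraries and higher in cluster 11 than in cluster 5 in the mutant.

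Neurons differed by cluster. In amacrine or horizontal cell-like cluster 10, led by Ptf1a and Prdm13, factors of amacrine and horizontal precursors, Slc2a1 stood at 187 and 216 CPM and Ldha at 349 and 396 CPM. In cluster 26, led by Onecut2, Tfap2a and Lhx1, of which Lhx1 marks horizontal cells, Slc2a1 was lower, at 19.6 and 32.5 CPM, as was Ldha, at 176 and 209.6 CPM. Ldhb was alike in both, at 776 and 672.5 CPM and at 779 and 667 CPM, so that Ldha made up 31.0% and 37.0% of dehydrogenase UMIs in the former and 18.4% and 23.9% in the latter. The deeper ganglion cell-like clusters 21 and 18 differed in Slc16a3 (66.5 and 78.6 CPM, 33.3 and 41.0 CPM) and Ldha (631 and 641 CPM, 430.2 and 402 CPM) and little in Ldhb (382.5 and 381 CPM, 367 and 325 CPM).

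**Figure D5:**
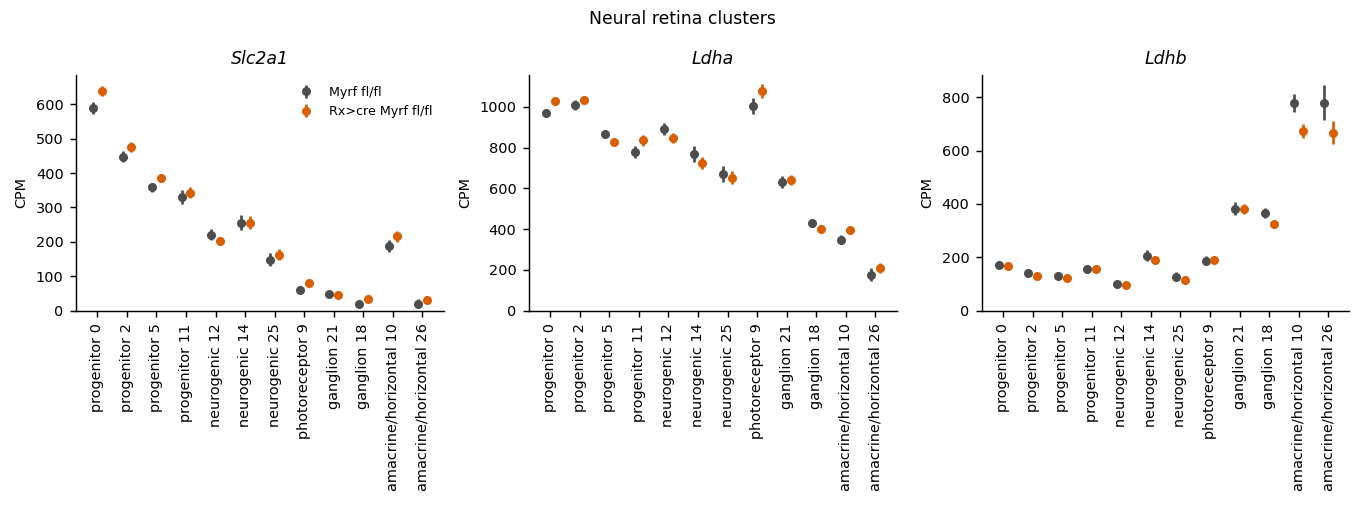
CPM of Slc2a1, Ldha and Ldhb over 12 neural clusters, numbered as in the text, from progenitor-like to neuron-like, for control and mutant with exact 95% Poisson intervals. Slc2a1 and Ldha were high in progenitor-like clusters, and Ldhb was highest in both amacrine or horizontal cell-like clusters.

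Endothelium-like cells, 160 in control and 126 in mutant, carried the junction marker Cdh5 at 796 and 831 CPM. They held Slc2a1 at 208 and 239 CPM (ratio 1.15, 1.00 to 1.32), Ldha at 371 and 351 CPM and no more than 1 UMI of Slc2a3. Slc16a3 (6.08 and 9.93 CPM, 13 and 16 UMIs) and Ldhb (32.7 and 49.6 CPM, 70 and 80 UMIs) were past 1.5-fold, at 1.63 (0.737 to 3.692) and 1.52 (1.09 to 2.12), where 13.4% of genes were. The estimated share of free RNA in these cells was 0.437% in control and 27.5% in mutant, and after its subtraction both log2 ratios reversed, to -1.85 and -3.22. The estimate counts all haemoglobin UMIs of a class as free RNA, also those of a red cell captured with another cell. In the mutant library it was as low as 0.396%, in ciliary margin-like cells. Values after subtraction therefore depend on this assumption, which was not tested. Well-counted barrier genes had ratios near 1, namely Abcg2, an efflux pump (156 and 187 CPM, 1.20, 1.02 to 1.41), Slc3a2 (93.9 and 107 CPM), Sox17, an endothelial transcription factor (62.6 and 75.7 CPM), and Itm2a (224 and 229.6 CPM). Of 10 measured barrier endothelial genes, 3 were past 1.5-fold and higher (median log2 0.27, beside -0.03 for all genes). These were Foxf2 and Foxq1, transcription factors, and Abcb1a, a drug efflux pump, named after their values were seen, at 6.54 and 13.6, 12.2 and 20.5, and 5.61 and 8.69 CPM. Plvap, a fenestration protein that barrier vessels lose, stood at 563 and 562 CPM.

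In erythroid-like cells 89.8% of control and 90.6% of mutant UMIs were haemoglobin, which lowers the CPM of every other gene. Without haemoglobin in the total, Bsg stood at 1489.9 and 1654 CPM, Ldha at 407 and 337 CPM, Ldhb at 65.8 and 76.6 CPM and Slc2a1 at 135 and 312 CPM. With haemoglobin in the total, Slc2a1 stood at 13.8 and 29.3 CPM and was past 1.5-fold at 2.12 (1.67 to 2.69), where 32.3% of genes were. Of its mutant UMIs, 57.4% were in 5 cells, and its direction differed between the 3 erythroid clusters. With haemoglobin in the total it was at 5.91 and 55.2 CPM in cluster 28, at 2.51 and 15.8 CPM, from 3 and 12 UMIs, in cluster 29, and at 23.4 and 11.4 CPM in cluster 22.

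Over the 15 classes, 12 of 94 measured gene and class pairs were past 1.5-fold, 4 lower and 8 higher in the mutant. Over all genes, 12.7% of such pairs were, 6.29% lower and 6.37% higher. Slc2a1 accounted for 4 of the 8 higher pairs. Besides the erythroid-like cells, these were periocular mesenchyme-like cells (18.9 and 29.7 CPM, 1.58, background 8.92%), immune-like cells (15.8 and 50.03 CPM, 3.16, background 14.3%) and Schwann cell precursor-like cells (9.91 and 75.4 CPM, 7.60, background 20.9%, with 73.5% of mutant UMIs in 5 cells). The 10 progenitor markers were also higher in mutant cells of the last 3 classes, summing to 486 and 774, 482 and 914, and 745 and 1842 CPM, and to 396 and 241 CPM in erythroid-like cells, and their part in the Schwann cell precursor-like and erythroid-like values was not tested. In Schwann cell precursor-like cells the estimated share of free RNA was 0.328% in control and 15.51% in mutant, and the 12 erythroid markers summed to 230 and 9292 CPM. The log2 ratio of Slc2a1 there (2.93) was 2.45 after subtraction of free RNA and 1.45 as mean CPM per cell. Without cells carrying markers of another class, the log2 ratio of Slc2a1 was 0.19 instead of 0.66 in mesenchyme-like cells and 1.15 instead of 1.66 in immune-like cells. After subtraction of free RNA, estimated at 11.3% and 8.95% of mesenchyme-like UMIs and 1.06% and 18.3% of immune-like UMIs, it was 3.84 in the former and 0.09 in the latter. In erythroid-like cells it ranged from 0.56, without the 5 richest cells, to 3.09, in marker-gated cells, around 1.08. The remaining pairs were Slc16a3 in amacrine or horizontal cell-like cells (1.503, background 8.63%), immune-like cells (1.85) and surface epithelium-like cells (0.603, background 17.3%), and Slc2a3 in ganglion cell-like cells (0.666, background 7.37%) and surface epithelium-like cells (0.264). No gene of the set was past 1.5-fold in neurogenic progenitor-like, ciliary margin-like, photoreceptor precursor-like, muscle-like or melanocyte-like cells, where 6.51%, 20.7%, 9.48%, 12.6% and 22.5% of genes were.

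The wider pathway was summarised in RPE-like cells from lists of related genes, whose counts stand beside 8.06% of all genes lower and 5.63% higher past 1.5-fold and a median log2 ratio of -0.05 over all genes. Of each list, the lowest and highest ratios are given for genes that reached 100 UMIs with the libraries added. Of 17 measured glycolytic enzymes, 0 were lower and 1 higher past 1.5-fold (median log2 -0.06), the one being Pfkp with 15 and 12 UMIs. The 3 lowest of the well-counted enzymes were Aldoc, an aldolase (30.3 and 20.9 CPM, 0.690), Pfkl, a phosphofructokinase (117 and 99.8 CPM, 0.856), and Gpi1, glucose-6-phosphate isomerase (339 and 292 CPM, 0.861), and the highest were Hk1, a hexokinase (1.22), Pgk1 (405 and 421 CPM, 1.04) and Eno3 (1.03). Of 12 hypoxia-inducible genes, 0 were lower and 1 higher (median -0.01), the one being Egln3 with 15 and 14 UMIs. Vegfa, the vessel growth factor secreted by the RPE, stood at 119 and 136 CPM (1.14, 0.973 to 1.33), and Higd1a, a mitochondrial protein, at 163 and 193 CPM (1.19). Mxi1, a transcription factor gene, had a ratio of 1.32 (0.873 to 1.97), and the 3 lowest of those with at least 100 UMIs were P4ha2, a collagen hydroxylase gene (0.910), the mitophagy gene Bnip3 (0.932) and Ero1l, an oxidase gene of the endoplasmic reticulum (0.980).

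Among 11 genes of pyruvate entry to mitochondria, 1 was lower, the phosphatase gene Pdp2 (44 and 14 UMIs, 0.614), and 0 were higher (median 0.05). Mpc1, a pyruvate carrier subunit, stood at 122 and 122 CPM (0.998), its partner Mpc2 at 241 and 260.3 CPM (1.08), and the kinase gene Pdk1 at 48.4 and 40.2 CPM (0.831). The pyruvate dehydrogenase complex genes Pdhb, Dlat and Dld had ratios of 0.918, 1.20 and 1.18. Of 5 other monocarboxylate carriers, 1 was higher, Slc16a10, an aromatic amino acid carrier, with 9 and 13 UMIs. Slc16a12, a creatine carrier, stood at 20.3 and 27.7 CPM (1.36, 0.942 to 1.97), and Slc16a9, a carnitine carrier, had a ratio of 0.936. Of 3 other hexose carriers, none was past 1.5-fold (median -0.23), and Slc2a4, the insulin-responsive GLUT4, had a ratio of 0.834. Nptn, a protein related to basigin, stood at 83.4 and 98.8 CPM (1.19, 0.983 to 1.42). Of 8 barrier genes, 2 were higher (median -0.06), Mfsd2a and Spock2 with at most 14 UMIs in a library. Slc3a2, the heavy chain of amino acid carriers, stood at 702.5 and 528 CPM (0.752, 0.699 to 0.809), its light chain gene Slc7a5 had a ratio of 0.721 (0.450 to 1.13), and Itm2a one of 0.901. Pfkp, Egln3, Pdp2, Slc16a10, Mfsd2a and Spock2 were named after their values were seen.

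Over the 30 class and library values, the 3 genes most like each member were found by Pearson's r among 14038 genes. They were Gsx2, Klk4 and Col4a3 for Slc16a8 (highest r 0.99), Dcaf12l2, Col4a5 and Gli2 for Slc16a1 (0.80), and Tbc1d9, B3galnt1 and the hypoxia-inducible Bnip3 for Slc16a3 (0.86). For Slc2a1 they were Plekha7, Map7 and Bend7 (0.77), and for Slc2a3 Sema4a, Gca and Palm3 (0.80). Those of Bsg were Fuom, Bckdhb and Zswim7 (0.93), those of Ldha Timm50, Ankrd54 and the pyruvate kinase gene Pkm (0.93), and those of Ldhb Tmem184c, Cbr1 and Fbxl15 (0.91). Between members the highest values were 0.66 for Bsg and Ldhb and 0.65 for Slc16a8 with Bsg and for Slc16a3 with Ldha. The values of a class share a library and its depth, and a gene of one class, such as Slc16a8, is matched mainly by that class. By rank correlation 4 of the 24 most-like genes remained among the first 3.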

How the data were processed

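The study deposited 1 single-cell library per genotype at e15.5, analysed here; other time points were not used here. The matrices deposited by the authors hold UMI counts for each gene and barcode that were not normalized. Per the labels the reads were aligned to mm10 with Cell Ranger 7.1.0 and analysed with Seurat 4.1.1, whereas the file headers name software version 3.1.0. Medians were 9339 and 8702 UMIs over 13017 control and 13880 mutant barcodes (132436812 and 135678970 UMIs in all).

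Cells with under 200 genes (235 and 150) or over 15% mitochondrial UMIs (879 and 733) and doublets called by Scrublet (422 and 348, or 3.53% and 2.67%) were left out. Counts were scaled to 10000 per cell and clustered without integration in scanpy 1.11.5 (Python 3.11.15) on 1858 of the 2000 most variable genes, which left out the members, lists and markers, with 30 principal components, 15 neighbours and Leiden resolution 1. Clusters were named from marker lists, and 4 clusters (8.55% and 8.02% of cells) stayed unnamed. The names may differ from the assignment used in the study.

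UMIs were summed per class and library and divided by the class total (CPM), with exact 95% Poisson, conditional binomial or Clopper-Pearson intervals. These cover counting error only. With 1 library per genotype no p-value was computed, and a gene counted as past the threshold at 1.5-fold with at least 20 UMIs over both libraries. A count of 0 allows up to 3 counts. Named list genes were the 3 lowest and the 3 highest ratios per list among those with at least 100 UMIs in RPE-like cells, and barrier genes with as many in endothelium-like cells. Likeness was Pearson's r on log2(CPM + 1) over classes, for genes with at least 200 UMIs. Free RNA was estimated from haemoglobin UMIs outside erythroid-like cells, relative to the summed profile of all barcodes of the library. It cannot be told from red cells captured together with another cell. The lists covered other monocarboxylate and hexose carriers, carrier partners, glycolytic enzymes, other lactate dehydrogenases (0 measured in RPE-like cells), pyruvate entry, hypoxia-inducible, barrier endothelial and Plvap genes. One gene of the lists and a median that rests on it are not reported here. Gene positions came from GENCODE M21 and promoters from RefSeq. Scripts were tested on simulated data. The members and lists were chosen with earlier results of these data known. Alternatives concerned cell filters, depth, classes, scaling, free RNA and single cells.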

Additional observations from a re-analysis of the deposited data

How the results depend on the processing

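No paired analysis was possible because there was 1 library per genotype, and the groups share only the replicate number 1. The alternatives that left out shared barcodes, split by depth, split the RPE-like class or changed the haemoglobin total were chosen after seeing the data. The log2 ratio of Slc16a8 in RPE-like cells (-0.82) stayed negative in every alternative run and was -2.26 at a mitochondrial share of at most 5%, -1.39 without cells over 20000 UMIs, -1.13 without cells over 2000 UMIs, -1.23 at resolution 2.0, -0.58 in marker-gated cells, -2.18 in cells with an Xist UMI but none Y-linked, -1.71 without cells carrying markers of another class, -1.49 above 2000 and up to 10000 UMIs, -1.22 as mean CPM per cell and -1.11 without the 5 richest cells. The number of the 8 genes past 1.5-fold (1) became 2 without cells over 20000 UMIs, above 2000 and up to 10000 UMIs and per cell, 0 in marker-gated cells and 3 without the richest cells, and the 12 of 94 pairs became 6 of 85 without cells over 20000 UMIs and 7 of 66 after thinning, and at most 18, of 94 as mean CPM per cell and of 86 in cells with an Xist UMI but none Y-linked. The class with the highest level stayed the same for 8 genes in most settings, but for 2 up to 2000 UMIs and 5 above 2000 and up to 10000 UMIs.

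The Ldha share in control RPE-like cells (58.3%) was 53.9% without cells over 20000 UMIs, 44.5% at resolution 2.0, 49.9% gated, 54.9% without mixed cells, 56.3% per cell, 54.0% thinned and 56.4% without the richest cells. In control amacrine or horizontal cell-like cells (28.7%) it was 32.0% at low mitochondrial share, 33.3% up to 2000 UMIs, 20.7% at resolution 2.0, 22.8% gated and 26.9% without the richest cells. The Slc16a8 share of carriers in control RPE-like cells (80.6%) was, in the same terms, 88.7%, 87.5% below 20000 UMIs, 84.0% up to 2000 UMIs, 95.7% at resolution 2.0, 90.9% gated, 88.6% without mixed cells, 85.8% thinned and 77.6% without the richest cells, and in the mutant (70.8%) 62.9% at low mitochondrial share, 86.2% at resolution 2.0, 89.6% gated, 52.4% with Xist but none Y-linked, 82.5% thinned and 61.2% without the richest cells. The median of the glycolytic enzymes (-0.06) was 0.058 at resolution 2.0, and the share of control RPE-like cells with a Slc16a8 UMI (21.1%) was 26.9% without thinning. By rank correlation 4 of 24 most-like genes remained. Of the 13 ratios past 1.5-fold, 3 reversed in direction under an alternative, namely Slc16a3 and Ldhb in endothelium-like cells after free RNA was subtracted (-1.85 and -3.22) and for Slc16a3 in surface epithelium-like cells per cell (0.066). Of the 26 ratios within 1.5-fold, 18 changed sign, among them Bsg (-0.42 to 0.26 around 0.19) and Slc2a1 (-0.74 to 0.27 around 0.04) in RPE-like cells. At resolution 2.0 the RPE-like class was the Ttr-high sub-cluster alone, since the other stayed unnamed. For the rest the cause was not tested. Of the other values, 391 kept within their counting interval and 94 moved. The depth of 368 and 206 RPE-like cells limits Slc16a3 and Slc2a3 most, at 26 and 15 mutant UMIs.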
